A study of Mus musculus with 3 samples.

Results

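The genes described here are 35 interferon-stimulated genes, a list given by symbol that covers the antiviral effectors, sensors and transcription factors a cell switches on after it meets interferon. Of the 31053 genes with a row in the count matrix, 34 were members. The remaining symbol, Mx2, was not analysed here. They were measured in LSK cells, the lineage-negative, Sca-1-positive, Kit-positive fraction of mouse bone marrow that holds hematopoietic stem cells and multipotent progenitors. The cells came from 2 Helios-deficient and 2 wild-type mice, each marked with its own hashtag antibodies against CD45 and MHC class I. Helios is an Ikaros-family transcription factor encoded by Ikzf2, and the labels give no strain, age or sex, nor the way in which Helios was removed. The labels name no interferon or other treatment, and whether the marrow was at rest was not measured. About 2500 cells per mouse were pooled in 1 droplet run, with antibody tags for the surface proteins CD41, CD48, CD150 and CD135 (Flt3). The question the design puts is what Helios does in this mixed population, and each mouse is 1 replicate (n = 2 per genotype).

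Type I interferons bind the receptor formed by IFNAR1 and IFNAR2, and the kinases JAK1 and TYK2 then phosphorylate STAT2. A complex that holds STAT2 and IRF9 binds the interferon-stimulated response element in the promoters of these genes, while interferon gamma acts mainly through another element, the gamma-activated site. Hematopoietic stem cells carry a baseline of interferon-stimulated transcripts, and interferon given to mice is known to push resting stem cells into cycle.

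The stretches of promoter below show the core of the response element, written GAAANNGAAA, for members whose values are given later. Each line is 60 bases upstream of a RefSeq start on GRCm38.p6, 5′ to 3′ along the gene's own strand, and capitals mark every match within the stretch, on either strand.
Isg15: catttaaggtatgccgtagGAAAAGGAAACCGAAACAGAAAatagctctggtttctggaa
Ifit1: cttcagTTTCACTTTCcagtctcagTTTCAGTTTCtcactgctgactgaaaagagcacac
Ifit3: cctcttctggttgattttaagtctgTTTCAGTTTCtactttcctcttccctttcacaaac
Ifit3b: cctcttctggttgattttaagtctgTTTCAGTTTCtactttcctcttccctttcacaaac
Rsad2: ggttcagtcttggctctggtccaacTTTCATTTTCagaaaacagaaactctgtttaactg
Oas1a: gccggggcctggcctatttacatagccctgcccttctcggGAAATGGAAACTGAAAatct
Bst2: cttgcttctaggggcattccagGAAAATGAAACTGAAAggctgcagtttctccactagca
Slfn5: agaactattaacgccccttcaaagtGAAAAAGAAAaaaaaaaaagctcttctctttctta

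The Isg15 stretch (chr4:156200856-156200915, minus strand) held 3 overlapping matches. The Bst2 stretch (chr8:71537565-71537624, minus strand) and the Oas1a stretch (chr5:120907526-120907585, minus strand) each held 2 that overlap. The Ifit1 stretch (chr19:34640779-34640838, plus strand) held 2 separate ones. The stretches of Ifit3 (chr19:34583382-34583441, plus strand) and Ifit3b (chr19:34607778-34607837, plus strand) were identical in all 60 bases, and these 2 genes are near copies whose reads the counting could have split or dropped. Rsad2 (chr12:26456538-26456597, minus strand) and Slfn5 (chr11:82951922-82951981, plus strand) held 1 match each, the latter at the edge of a run of A.

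RefSeq promoter windows of 300 bases, 250 upstream and 50 downstream of the start, were at hand for 25 of the 34 members. The response element core lay in at least 1 window of 14 of them (56.0%), against 3.99% of the 27025 genes in the table. The gamma-activated site, written TTCNNNGAA and read on both strands, lay in 5 of the 25 (20%), against 9.55% of all genes. Members with the core in the window were Bst2, Eif2ak2, Ifih1, Ifit1, Ifit3, Ifit3b, Isg15, Oas1a, Oas3, Rsad2, Slfn5, Slfn8, Stat2 and Trim30a. A match describes letters in this window and does not show binding.

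After the removal of cells outside the deposited filter, 557, 824, 1175 and 914 cells remained for Helios-deficient mouse 1, Helios-deficient mouse 2, wild-type mouse 1 and wild-type mouse 2, and values by mouse are given in that order throughout. They held 5729987, 8424677, 10317599 and 8364109 UMIs, each UMI being 1 counted RNA molecule, with a median of 8670, 8461, 7599 and 7627 per cell. Levels are in CPM, the UMIs per 1000000 UMIs of the mouse or cell class. The 3′ tags are not scaled by transcript length, so a CPM counts molecules. Kit was at 82.5 to 94.8 CPM and Ly6a, which encodes Sca-1, at 128 to 157 CPM. Ikzf2 was at 73.6, 82.7, 70.6 and 67.7 CPM, and a 3′ count does not show whether a deleted stretch is missing. Marker lists of macrophages summed to 29.8 to 63.6 CPM and those of neutrophils to 3.44 to 17.1 CPM over the mice. Those of B cells summed to 40.5 to 81.3 CPM, mostly from Cd79b (1447 UMIs). The T or NK cell list summed to 239 to 284 CPM, mostly from Nkg7 (8310 UMIs).

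The 34 members together contributed 5548, 9746, 11218 and 7605 UMIs, or 968, 1157, 1087 and 909 CPM. Helios-deficient mice averaged 1063 ± 133 and wild-type mice 998 ± 126 CPM (SD, n = 2 each), and the 2 ranges overlapped. The members contributed unequally. Bst2 (ENSMUSG00000046718), which encodes tetherin, a membrane protein that holds budding virus on the cell surface, gave 17.4% of them. Its level was 203, 190, 172 and 166 CPM, with both Helios-deficient mice above both wild-type mice. Rtp4, a receptor transporter that restricts viruses, gave 10.4% and was at 93.7, 120.0, 115 and 96.8 CPM, with overlapping groups. These 2 genes were the ones above 100 CPM on average, and 7 members averaged under 10 CPM.

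The next levels belonged to genes of several roles. Ifi35 was nearly level over the mice at 72.4, 68.7, 73.3 and 67.6 CPM. Isg15, the ubiquitin-like modifier that is attached to viral and host proteins, was at 50.8, 68.0, 56.8 and 38.0 CPM, with the lowest value in wild-type mouse 2. Irf9, the DNA-binding partner of STAT2, was at 49.6, 59.8, 51.5 and 52.0 CPM. Trim30a was at 45.9, 50.3, 45.6 and 37.1 CPM. Oasl2, a relative of the oligoadenylate synthetases, was at 30.4, 40.4, 51.9 and 38.6 CPM, so its 2 genotypes overlapped in the middle. Xaf1, linked to cell death, was at 36.6, 45.9, 40.5 and 36.7 CPM. Irf7, the factor that amplifies interferon production, was at 26.2, 43.9, 34.6 and 26.4 CPM, and Helios-deficient mouse 2 stood above the others. Ifi27l2a was at 32.5, 49.3, 38.3 and 32.9 CPM. Eif2ak2, the double-stranded RNA kinase PKR, stayed between 33.6 and 39.3 CPM, and Parp9, which works with the ubiquitin ligase Dtx3l, between 31.0 and 33.6 CPM.

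The mice differed most in the classical effector genes, all of them less abundant. Ifit1, whose product binds foreign RNA caps, was at 21.1, 29.7, 35.6 and 14.1 CPM. Ifit3, its partner, was at 3.32, 8.19, 6.69 and 1.08 CPM, and Ifit3b at 2.09, 4.15, 1.36 and 0.359 CPM. Rsad2 encodes viperin, an antiviral enzyme of nucleotide metabolism, and was at 8.90, 18.3, 16.7 and 9.68 CPM. Mx1, a dynamin-like antiviral GTPase, was at 0.349, 2.73, 1.84 and 0.717 CPM on 50 UMIs in all. Helios-deficient mouse 2 and wild-type mouse 1 were the higher mice for Ifit1, Ifit3, Rsad2 and Mx1, 1 of each genotype. The 17 members without values here averaged between 2.23 (Oas2) and 28.8 CPM (Dtx3l). The highest mouse exceeded the lowest more than 2-fold in 6 members and less than 1.5-fold in 17. Helios-deficient mouse 2 was the highest of the 4 for 23 members, and wild-type mouse 2 was the lowest for 19.

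**Figure D1:**
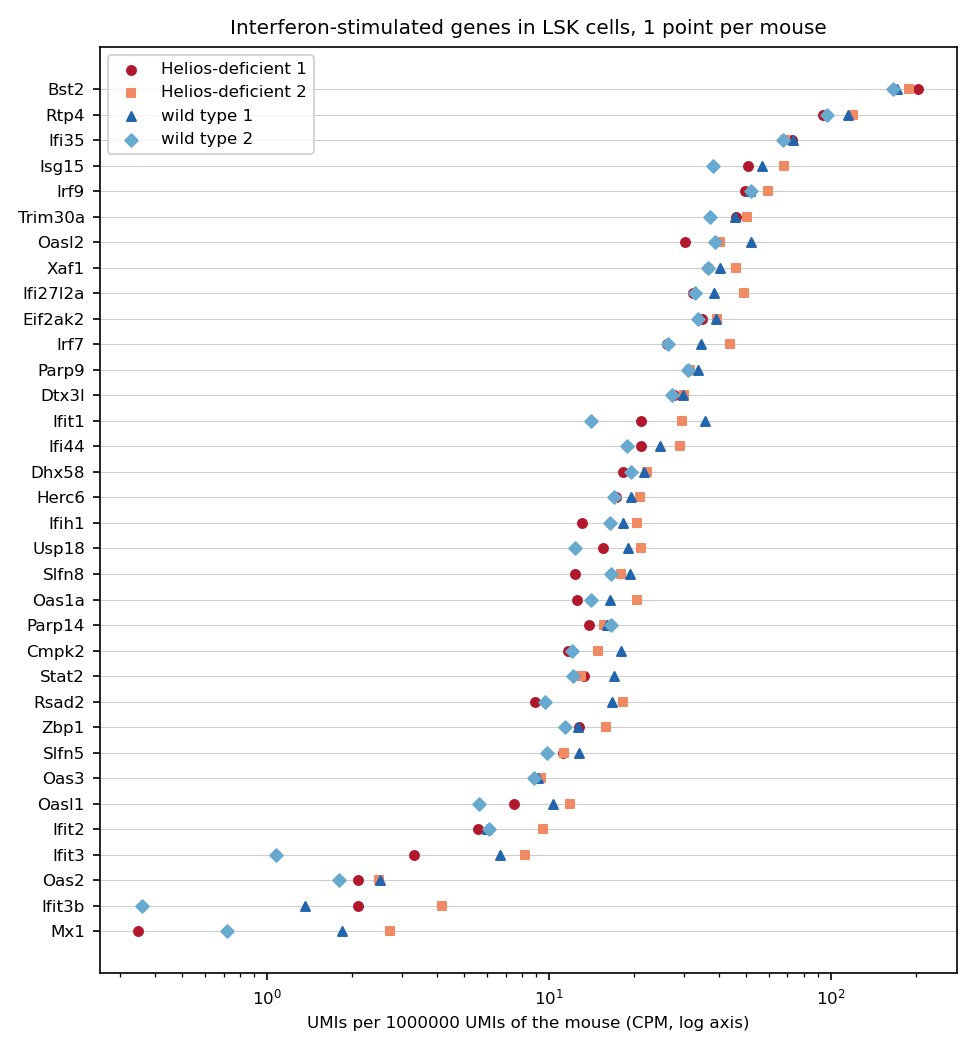
CPM (log axis) of each of the 34 interferon-stimulated genes, 1 point per mouse, ordered by mean level. Bst2 (166 to 203 CPM) and Rtp4 (93.7 to 120.0 CPM) lie at the top with tight points, whereas Ifit3, Ifit3b and Mx1 spread widely over the 4 mice.

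The rest of the pathway was read from the same cells. Of 21 interferon ligand genes with a row, 19 had no UMI and the other two, Ifnz and Ifnab, had 3 and 1, out of 32836372 UMIs. A count of 0 allows up to 3 UMIs, or 0.0914 CPM. The receptor chains were present: Ifnar1 at 23.2 to 32.3, Ifnar2 at 66.5 to 80.7 and Ifngr1 at 90.7 to 100.3 CPM, while the lambda receptor chain Ifnlr1 had no UMI. Jak1 was at 108 to 123 CPM.

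Between genotypes, none of the 34 members passed an adjusted p of 0.05 in either direction in edgeR's quasi-likelihood test, fitted to counts summed per mouse over 11592 genes. Over all genes 0.794% passed, 42 higher and 50 lower in Helios-deficient mice. DESeq2 also called 0 members, against 0.115% of all genes lower and 0.0965% higher. An unadjusted edgeR p under 0.05 was seen for 2 members, against 1202 of all genes tested. The log2 fold change of Helios-deficient over wild-type mice had a median of 0.09 over the members and 0.00 over all genes, with 24 members above and 10 below 0.

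Mice of the 2 genotypes did not overlap for 5 members, 4 higher and 1 lower in Helios-deficient mice. Over all genes tested, 41.1% did not overlap, so 5 of 34 is below that background. Ifit3b was 1.84 higher on the log2 scale (SE 0.50, edgeR adjusted p = 0.110), on 64 UMIs in all. Bst2 was 0.22 higher (SE 0.065, edgeR adjusted p = 0.147), and Zbp1, a sensor of Z-form nucleic acid, 0.27 higher (adjusted p = 0.615). Trim30a was 0.22 higher (adjusted p = 0.485), and Parp14 was at -0.14 (adjusted p = 0.813). By role, the median change was 0.47 for the IFIT family, 0.24 for the ISG15 conjugation genes, 0.09 for the transcription factors, 0.09 for the oligoadenylate synthetase family, 0.01 for the sensors and -0.12 for the 2 Schlafen genes.

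Some alternatives called members, among them every fit that left out 1 mouse. Without Helios-deficient mouse 1, Irf7 (0.51, edgeR adjusted p = 9e-04), Ifi27l2a (0.46) and Ifit3b (2.19) were called higher, and the median over members was 0.21. Without Helios-deficient mouse 2, Bst2 (0.27) was called higher and Oasl2 (-0.58) lower, with a median of -0.10. Leaving out wild-type mouse 1 gave 4 higher calls, Isg15 (0.65), Ifit1 (0.87), Ifit3 (2.47) and Ifit3b (3.13), and a median of 0.22. Leaving out wild-type mouse 2 gave 1 lower call, Oasl2 (-0.53), and a median of -0.05. Each such fit has 1 mouse in a genotype and assumes that it varies as the others do. Each also called a larger share of all genes, both lower and higher, than the fit of all 4 mice. With equal numbers of cells of each cluster per mouse, Bst2 (0.29, edgeR adjusted p = 0.037) and Ifit3b (3.90, adjusted p = 0.0092) were called higher, against 0.317% of all genes. With no filter on low counts, Ifit3b (1.83, adjusted p = 0.0031) was called higher and Oasl2 (-0.35, adjusted p = 0.038) lower. Over all genes that fit called 0.893% in each direction.

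Other interferon genes were tested between genotypes in the same fit. None of 5 receptor genes, 5 kinases and STATs, 7 inhibitors of signalling, 11 sensors and adaptors, 10 genes of MHC class I presentation or 16 interferon-inducible GTPases passed. Among 5 tested members of the Ifitm family, membrane proteins that block viral entry, Ifitm3 was higher in Helios-deficient mice, at 1246, 1261, 985 and 860 CPM (log2 fold change 0.44, SE 0.056, edgeR adjusted p = 0.00027). Within the 4 clusters that held at least 50 cells of every mouse, no member passed out of 26, 31, 29 and 23 tested, and 2, 3, 3 and 3 had an unadjusted p under 0.05. The genotype difference was also compared between cells of high and low CD48. None of 31 members tested passed for that interaction, against 0.317% of all genes.

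The members were unevenly spread over cells. To compare cells at 1 depth, each cell was thinned to 3000 UMIs, which left out 17 shallower cells and kept 3453. A cell then held a mean of 3.31, 3.93, 3.56 and 2.96 member UMIs, with a variance of 3.53, 5.06, 5.39 and 2.53 times the mean, where random sampling of like cells would give a value near 1. Cells without any member UMI made up 9.53%, 7.08%, 11.4% and 10.6%. At the other end, the richest cell held 33, 55, 49 and 30 member UMIs. The 10% of cells with the most member UMIs, called member-rich cells below, held 33.3%, 34.2%, 36.1% and 30.04% of them in the 4 mice.

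Cells that carried UMIs of 10 or more different members at this depth numbered 11, 20, 28 and 8. As shares these were 1.98% (exact Clopper-Pearson 95% interval 0.992 to 3.51), 2.44% (1.5 to 3.75), 2.40% (1.60 to 3.44) and 0.880% (0.381 to 1.73), intervals that cover counting error only. Such cells occurred in every mouse, and wild-type mouse 2 had the lowest share, with an interval that overlaps those of the others. Up to 17, 22, 21 and 17 of the 34 members were seen in a single thinned cell.

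**Figure D2:**
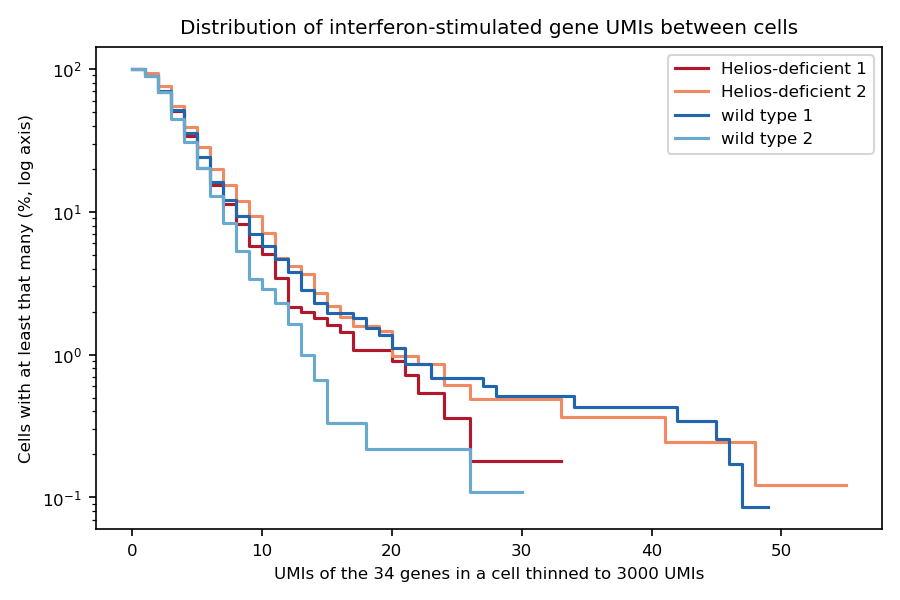
Percentage of cells (log axis) that held at least the given number of interferon-stimulated gene UMIs after thinning to 3000 UMIs, 1 line per mouse. All 4 lines have a long tail, which ends at 55 UMIs in Helios-deficient mouse 2 and at 30 in wild-type mouse 2.

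Members differed in how concentrated they were. For each member, the cells were ranked by the UMIs of the other 33 members, and its UMIs per cell in the top 10% (346 cells) were set against those in the rest. The median ratio was 3.24, 19 members were above 3, and 28 had a ratio above 1 in each of the 4 mice. A mouse without UMIs of a member in the rest gave no ratio. Ifit3b and Oas2, higher in the top 10% in every mouse, are for that reason not among the 28. Ifit1 was 14.3-fold more abundant there, with 202 UMIs against 127 and ratios of 6.2 to 20.8 over the mice. Isg15 was 6.76-fold more abundant and was seen in 41.9% of these cells against 10.2% of the rest. Rsad2 was 7.35-fold higher, the deconjugating enzyme Usp18 7.15-fold, Irf7 5.29-fold, Oasl2 4.43-fold and Rtp4 4.24-fold. Rare genes had the most extreme ratios, Ifit3b with 21 UMIs against 2, Ifit3 with 48 against 15 and Mx1 with 13 against 4. No class of these cells is known to lack the members, so the share that free RNA gives was not measured. At the low end, Bst2 was 1.49-fold higher (1.30 to 1.58 over the mice) and Oas1a 1.61-fold. The most abundant member was thus the one that differed least between these cells, although its promoter window, like that of Ifit1, held 2 matches to the response element core. Members with the core in the window had a median ratio of 3.10 (14 genes) and those without it 3.11 (11 genes).

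The variance of single members over cells was 3.32 times the mean for Ifit1, 2.25 for Ifit3, 2.04 for Rsad2, 1.87 for Isg15, 1.74 for Rtp4 and 1.73 for Ifi27l2a, and under 1.1 for 18 members. This variance did not follow the ratio in every member. Mx1 was at 0.995 and Oas2 at 1.06, on 17 and 31 UMIs, with ratios of 29.2 and 6.49, and Bst2 was at 1.15. Across the 3453 cells the pairwise correlations were weak at this depth, with a median r of 0.054 over 561 pairs. The closest pairs were Ifit1 with Rsad2 (r = 0.48), Ifit1 with Ifit3 (r = 0.47), Ifit3 with Ifit3b (r = 0.42) and Ifit1 with Isg15 (r = 0.41). These are descriptions over cells that share a library and a depth.

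Cell cycle state went with the level of most members. Within each mouse, cells were ranked by the share of UMIs from lists of S and G2/M phase genes, and the 1158 cells ranked highest (cycling) were compared with the 1158 ranked lowest (non-cycling), with mouse as a block. Of 34 members, 31 had enough counts for the test, and 25 of these were lower in cycling cells, 0 higher and 6 not past the threshold. Over all genes 26.2% were lower. The median log2 fold change was -0.74 over members and -0.04 over all genes. All 4 oligoadenylate synthetase genes tested, all 3 transcription factors, all 3 genes of the PARP9-DTX3L and PARP14 group and both Schlafen genes were lower, as were 3 of 4 sensors, 2 of 3 ISG15 conjugation genes, 7 of 9 other effectors and 1 of 3 IFIT genes.

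Slfn5, a Schlafen protein that regulates transcription and growth, had the largest difference. It was at 27.5, 24.0, 28.3 and 19.2 CPM in non-cycling and 1.83, 3.73, 2.25 and 3.18 CPM in cycling cells (log2 fold change -3.05, SE 0.22, edgeR adjusted p = 1.6e-14), so the classes did not overlap. Ifit1 fell from 36.4, 63.3, 69.4 and 28.0 to 3.65, 16.2, 11.7 and 6.11 CPM (-2.30, SE 0.15). Rtp4 fell from 146, 158, 163 and 139 to 54.8, 89.95, 77.8 and 74.3 CPM (-0.94, SE 0.073). Differences were -1.43 for Ifi44, -1.39 for Rsad2, -1.34 for Oasl2, -1.25 for Irf7, -1.18 for Zbp1, -1.10 for Oasl1, -0.85 for Irf9 and -0.80 for Isg15. Bst2 moved little, from 211, 208, 177 and 183 to 187, 167, 166 and 150 CPM (-0.14, SE 0.051, edgeR adjusted p = 0.021). The 13 other lower members lay between -0.41 for Usp18 and -0.93 for Parp14. The 6 members that did not pass were Ifi35, Ifit2, Ifit3, Herc6, Eif2ak2 and Ifi27l2a, and of these Ifit2 was at 0.48 with higher CPM in the cycling cells of all 4 mice.

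These are shares of a cell's RNA, and cycling cells had more RNA. Their median depth was 12714 UMIs against 6202. Summed member CPM was 1338, 1525, 1415 and 1141 in non-cycling and 690, 918, 841 and 757 in cycling cells. Member UMIs per cell went the other way, from 8.90, 10.2, 9.05 and 7.21 to 10.1, 13.4, 10.5 and 10.2. Per cell, 5 of the 34 members, Ifit1, Oasl2, Slfn5, Rsad2 and Ifi44, had fewer UMIs in cycling cells in all 4 mice, 11 had more in all 4, and 18 were mixed. For those 5 genes the lower level therefore held both per UMI and per cell. Slfn5, for example, gave 34, 44, 71 and 37 UMIs in non-cycling cells and 5, 15, 11 and 13 in as many cycling cells.

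The 2 classes also differed in their clusters. The clusters were built without the genes of the S and G2/M lists, but other cycle genes were not left out. Cycling cells made up 100% of cluster 0, led by the mitotic gene Ube2c, and 92.0% of the myeloid-primed-like cluster 1. They made up 5.21% of cluster 2, of which 63.0% was non-cycling. Without clusters 0 and 1, an alternative added after the data were seen, 19 of 31 members tested were lower, against 18.5% of all genes. The 1 higher member was Ifit2 (0.89, edgeR adjusted p = 0.017), against 20.6% of all genes. Slfn5 was then at -1.56 and Ifit1 at -1.05, both still called, and the median over members was -0.52. The calls of Oas1a, Usp18, Bst2, Slfn8, Dhx58 and Cmpk2 were lost.

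For 3 members the calls rested on single mice. Oas1a was not called without Helios-deficient mouse 1, Helios-deficient mouse 2 or wild-type mouse 2, Usp18 not without Helios-deficient mouse 1 or wild-type mouse 1, and Bst2 not without Helios-deficient mouse 1, Helios-deficient mouse 2 or wild-type mouse 2. In the related lists all 5 receptor genes and 11 of 12 interferon-inducible GTPases tested were lower in cycling cells, Ifnar1 by -0.64 and Iigp1 by -1.89. Of 10 sensors and adaptors tested 5 were lower, among them Ddx58 (-1.08), the gene of RIG-I, and Ikbke (-1.07), and 1 was higher, Mb21d1 (1.92), which encodes the DNA sensor cGAS. Genes of MHC class I presentation went both ways, with Psmb8, Psmb9 and Tap1 higher (0.26 to 0.35) and B2m, H2-D1, H2-K1, Tapbp and Tap2 lower (-0.21 to -0.29).

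CD48 separates stem cells, which lack it, from more mature progenitors within LSK cells. The 25% of cells of each mouse with the most CD48 tags (CD48-high) were set against the 25% with the fewest (CD48-low), and 11 of 31 members tested were lower in the CD48-high cells, 1 was higher and 19 did not pass. Over all genes 17.5% were lower and 19.5% higher. The median log2 fold change was -0.24 over members and -0.01 over all genes. Summed CPM was 1138, 1223, 1211 and 964 in CD48-low and 756, 1104, 955 and 794 in CD48-high cells. Median depth was 6379 and 12697 UMIs, and member UMIs per cell went the other way, from 8.32, 8.96, 8.25 and 6.76 to 11.1, 16.1, 11.5 and 10.5. Per cell, Ifit1 and Rsad2 had fewer UMIs in CD48-high cells in all 4 mice, 18 members had more in all 4, and 14 were mixed. Isg15, Parp14 and Trim30a, lower per UMI, were among the 18.

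Ifit1 was at 31.5, 47.7, 53.4 and 21.9 CPM in CD48-low and 2.45, 23.6, 14.4 and 8.0 CPM in CD48-high cells (log2 fold change -1.54, SE 0.23, edgeR adjusted p = 8.1e-05). The other lower members were Slfn5 (-1.34), the RNA sensor gene Ifih1 (-1.09), Rsad2 (-1.07), Oasl2 (-0.69), Ifi44 (-0.68), Stat2 (-0.60), Irf9 (-0.53), Isg15 (-0.52), Parp14 (-0.47) and Trim30a (-0.38). Ifi27l2a went against them. It was at 26.6, 16.6, 22.0 and 10.6 CPM in CD48-low and 33.9, 67.6, 53.2 and 43.3 CPM in CD48-high cells (1.54, SE 0.18, edgeR adjusted p = 5.5e-08), higher in every mouse.

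Cycling cells made up 15.9% of CD48-low and 60.4% of CD48-high cells. CD48 was therefore also ranked within each class of cycling, an alternative added after the data were seen. Within the non-cycling cells, 0 of 22 members tested were lower, against 5.39% of all genes. The 2 higher were Ifi27l2a (2.26) and Rtp4 (0.37), against 5.83% of all genes. Within the cycling cells, 1 of 23 was lower, Ifih1 (-0.91), against 5.39% of all genes. Ifi27l2a (1.47) and Irf7 (0.92) were the 2 higher, against 6.12% of all genes. Ifi27l2a was thus higher with CD48 in each setting tried, whereas of the 11 lower members Ifih1 alone was called lower in a class. Rsad2 was tested in neither class, and Slfn5 and Stat2 were not tested in the cycling cells. Stat2 was at -0.54 in the non-cycling cells (edgeR adjusted p = 0.44). These fits use fewer cells and test fewer members. With the reverse ranking, cycling cells were lower for 12 of 18 members tested within the CD48-low cells, against 12.5% of all genes. Within the CD48-high cells 10 of 24 were lower, against 13.4% of all genes. Over single mice, the CD48 call of Trim30a was lost without wild-type mouse 1, that of Stat2 without Helios-deficient mouse 1, Helios-deficient mouse 2 or wild-type mouse 1, and that of Parp14 without Helios-deficient mouse 1, Helios-deficient mouse 2 or wild-type mouse 2.

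**Figure D3:**
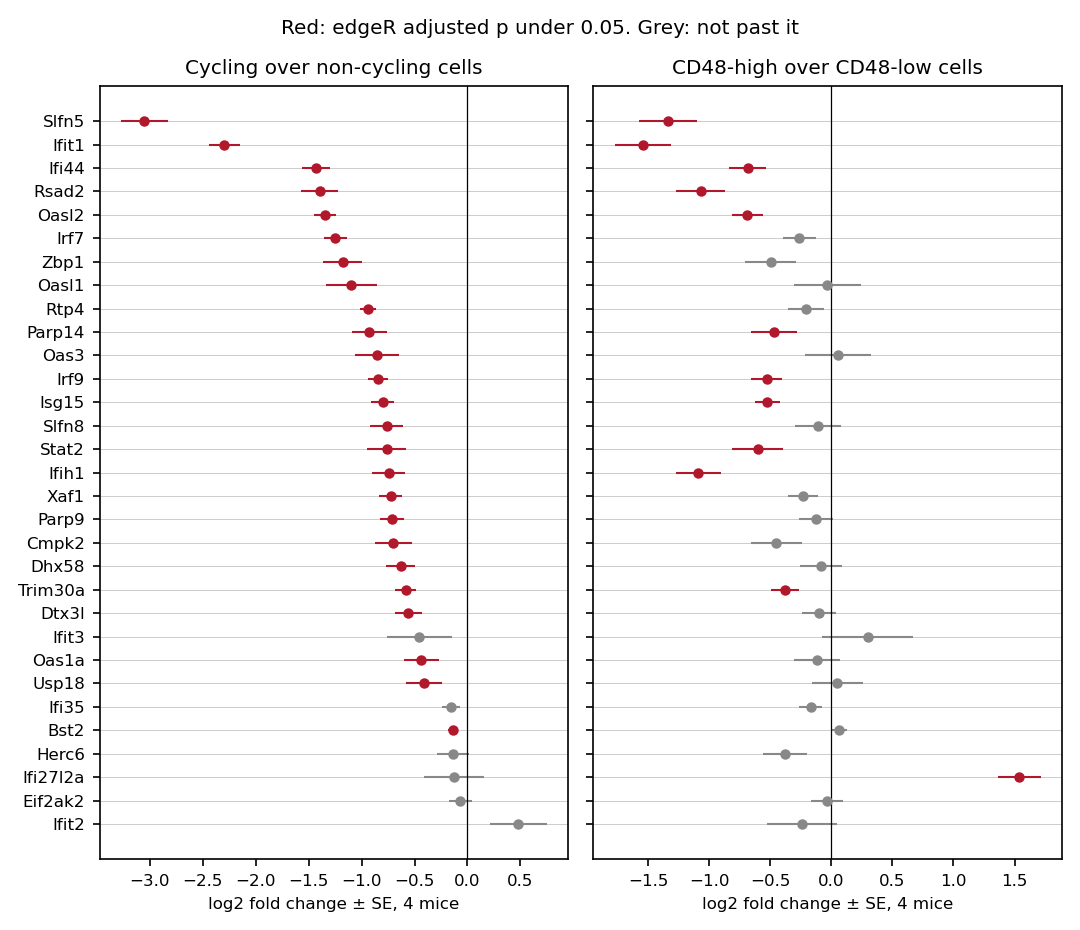
Log2 fold change with its SE for each member tested, cycling over non-cycling cells (left) and CD48-high over CD48-low cells (right), fitted over 4 mice, red where the edgeR adjusted p is under 0.05. Slfn5 and Ifit1 lie farthest left in the cycle panel, and Ifi27l2a is the member to the right of 0 in red for CD48.

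For the remaining surface tags the calls depended on how the tags were scaled. With raw tag counts they were as follows. CD150 is high on stem cells, and between the 25% of cells with most and with fewest of its tags 3 of 30 members tested were lower, against 4.65% of all genes. Rtp4 fell from 114, 164, 129 and 113 to 79.2, 108, 98.0 and 78.7 CPM (-0.50, SE 0.073). Oasl1 (-0.82) was lower too, a call that was lost without any 1 of the mice, as was Irf9 (-0.32), whose call was lost without Helios-deficient mouse 2, wild-type mouse 1 or wild-type mouse 2. CD41, a platelet integrin chain, gave 5 lower members of 31, against 5.0% of all genes, namely Slfn5 (-0.72), Ifi27l2a (-0.52), Irf7 (-0.51), Xaf1 (-0.43) and Rtp4 (-0.36). Calls were lost for Slfn5 without Helios-deficient mouse 1, Helios-deficient mouse 2 or wild-type mouse 1, for Ifi27l2a without Helios-deficient mouse 1, for Irf7 without Helios-deficient mouse 2, and for Xaf1 without either wild-type mouse. DESeq2 called 0 members for CD41 and 1 lower for CD150, where it called 0.590% and 0.433% of all genes lower. CD135, the Flt3 receptor of lymphoid-primed progenitors, gave 0 of 30 members, against 2.48% of all genes. The centred log ratio of the tags sets each tag against the other tags of the cell. With it, CD150 gave 0 lower and 4 higher of 30 members, against 12.4% and 11.9% of all genes. CD41 gave 2 lower and 4 higher of 30, against 12.4% and 10.6%. For CD135 there were 0 lower and 10 higher of 31, against 12.2% and 8.90%. For CD48 there were 7 lower and 2 higher of 31, against 16.9% and 18.7%.

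Clusters of cells give the levels by transcript class, as a description. They were built without the members, the interferon and cycle genes of the lists used here, and sex-linked genes. Interferon targets outside those lists were not left out. Summed member CPM was lowest in the erythroid-primed-like cluster 9 (644 ± 196, SD over 4 mice), the megakaryocyte-primed-like cluster 5 (649 ± 108) and the myeloid-primed-like cluster 1 (701 ± 37.1). It was 801 ± 85.4 in cluster 0, led by the mitotic gene Ube2c, 971 ± 136 in cluster 4, 1167 ± 126 in cluster 3 and 1234 ± 219 in cluster 6, led by Notch2. The lymphoid-primed-like cluster 8 was at 1324 ± 168 and cluster 7, led by histone genes, at 1374 ± 426. Cluster 2 was the highest at 1503 ± 277. Its leading genes were immunoglobulin transcripts, Cd74, the chemokine gene Cxcl10 and Meg3, an RNA of quiescent stem cells, so it was given no name. Neighbours in this order overlapped over the mice, while each mouse had a higher value in cluster 2 than in clusters 0, 1, 5 and 9. CPM values are shares of a cell's RNA, and depth differed. Median depth was 15149 UMIs in cluster 0 and 6104.5 in cluster 2. Member UMIs per cell were 11.66, 13.44, 10.61 and 14.76 in cluster 0 against 9.68, 12.02, 11.18 and 6.85 in cluster 2. Per cell, cluster 5 was below cluster 2 in each mouse, while for clusters 0, 1 and 9 the direction differed between mice.

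The members did not follow 1 pattern over the clusters. Cluster 2 had the highest mean for 16 members, cluster 7 for 8 and cluster 8 for 5. Ifit1 was at 73.4 ± 30.4 CPM in cluster 2 and 3.35 ± 0.83 in the myeloid-primed-like cluster. Slfn5 was at 24.0 ± 3.61 in cluster 2 and 1.46 ± 1.86 in cluster 0. Irf7 was at 61.1 ± 10.3 in the lymphoid-primed-like cluster, 57.7 ± 28.3 in cluster 2 and 12.9 ± 1.87 in the myeloid-primed-like cluster. Ifi27l2a was high elsewhere, at 158 ± 103 in cluster 7 and 100.5 ± 29.8 in the lymphoid-primed-like cluster, against 23.9 ± 6.5 in cluster 2. Bst2 varied least among the members named here, from 137 ± 18.3 in cluster 0 to 232 ± 47.1 in the lymphoid-primed-like cluster.

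**Figure D4:**
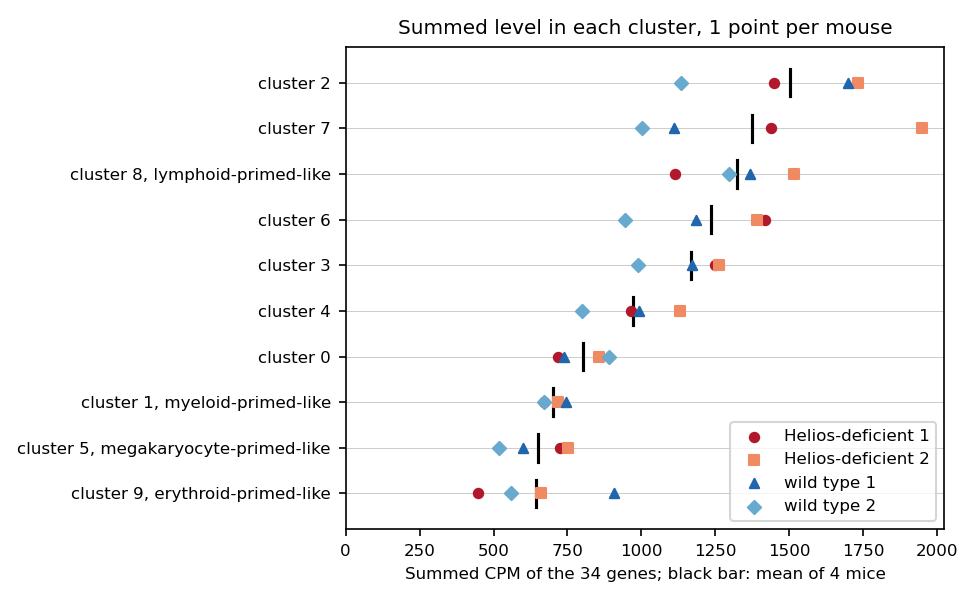
Summed CPM of the 34 genes in each cluster, 1 point per mouse and a black bar for the mean of 4 mice. The 3 clusters at the bottom average 644 to 701 CPM, and cluster 2 at the top averages 1503 CPM.

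The cells with the most member UMIs also differed in other genes. The member-rich cells, chosen by thinned member UMIs, were compared with the other cells over 10152 genes, members left out, with mouse as a block. Of these genes 10.5% passed, 452 higher and 614 lower. Without Helios-deficient mouse 2 the counts were 269 and 403. Ly6a, which encodes the Sca-1 protein used to sort these cells, was at 364, 439, 341 and 293 CPM in the member-rich cells and 140, 123, 137 and 114 CPM in the rest (log2 fold change 1.47, SE 0.075, edgeR adjusted p = 1.7e-24), with no overlap between the classes. Other large rises were in genes known as interferon targets, Gm4951 (2.89), Ddx60 (1.81), Igtp (1.68), Slfn2 (1.65), Tgtp2 (1.61), Phf11b (1.5) and Irgm1 (1.49), and in the MHC class II gene H2-Eb1 (1.47). Iigp1 (2.89) was not called without Helios-deficient mouse 1 or mouse 2, and Isg20 (1.46) not without Helios-deficient mouse 2, with 27.6 against 27.4 CPM in wild-type mouse 2.

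By list, 12 of 13 interferon-inducible GTPases tested were higher in these cells, as were 6 of 10 genes of MHC class I presentation, with small changes such as 0.28 for B2m and 0.51 for Tapbp. Higher were also 4 of 11 sensors and adaptors, among them Tlr7 (1.52) and Ddx58 (1.37), 3 of 7 inhibitors, among them Socs1 (1.18), 2 of 5 receptors and 2 of 4 Ifitm genes. No gene of these lists was called lower. The GTPases are targets of interferon gamma as well as of type I interferon.

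The largest falls were in the neutrophil elastase gene Elane (-3.69), in Fgf3 (-2.41), in the replication genes Tk1 (-2.22), Clspn (-2.21) and Mcm10 (-2.19), and in Cavin2 (-2.13), a gene of the platelet lineage. Elane was at 9.22, 4.95, 10.7 and 1.53 CPM in the member-rich cells and 178, 145, 60.6 and 6.88 CPM in the rest. Cycling cells made up 8.93%, 12.2%, 15.4% and 14.3% of the member-rich cells and 36.2%, 35.8%, 35.4% and 35.7% of the rest. Median depth was 7142, 6532, 6351 and 6267 UMIs against 8916, 8827, 7748 and 7838. The part of cycle state and depth in these differences was not tested. Markers of plasmacytoid dendritic cells, a cell type that makes interferon, summed to 150, 193, 229 and 167 CPM in the member-rich cells and 128, 187, 160 and 136 CPM in the rest, with 6 of 8 genes detected. Most of these UMIs came from Tcf4 (3167) and Irf8 (1409), which progenitors also use, whereas over all kept cells the defining marker Siglech had 1 UMI and Klk1 and Spib had 0. Macrophage markers, with 10 of 10 genes detected, summed to 23.1, 70.9, 35.5 and 52.1 CPM in the member-rich cells and 30.4, 42.8, 32.7 and 62.7 CPM in the rest, with no common direction over the mice.

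**Figure D5:**
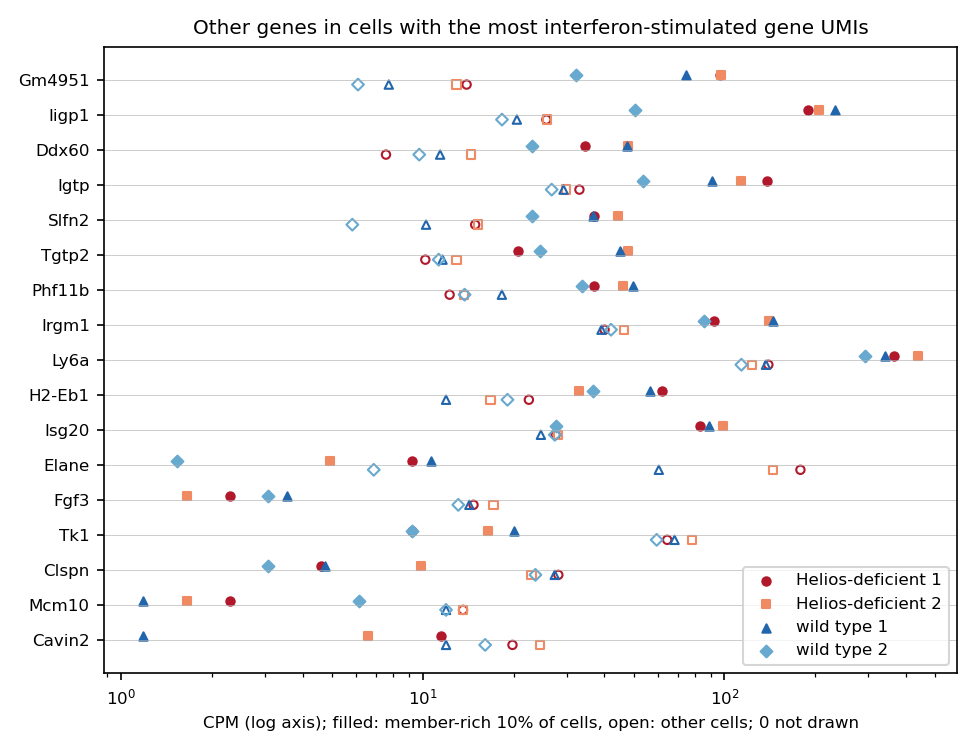
CPM (log axis) of other genes with large rises (Gm4951 to Isg20) and of the 6 largest falls (Elane to Cavin2), filled points for the 10% of cells with the most interferon-stimulated gene UMIs and open points for the rest, 1 point per mouse (a value of 0 for Cavin2 is not drawn). Ly6a lies at 293 to 439 CPM in the member-rich cells and 114 to 140 CPM in the rest.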

How the data were processed

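Single-cell RNA, surface-tag and hashtag libraries of 1 droplet run were analysed. Raw UMI counts per gene and cell, whole numbers as deposited, came from Cell Ranger on mm10 with 3′ version 2 chemistry, and tag counts and filtered barcodes from the authors' work with Seurat 3.0.0, per the submitters' processing notes and the labels. The matrix header names software version 3.0.2, and the annotation release and strand setting are not given in the sources used here. Mice were assigned by the authors' deposited hashtag calls: 3470 cells were kept of 4108 barcodes, calls of more than 1 hashtag were left out as doublets, and doublets within a mouse cannot be seen. The files held 0 duplicate barcodes. Depth per mouse stands at the head of the results, and intervals cover counting error only.

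Members and lists were chosen with earlier results of these data known. Counts were summed per mouse, or per mouse and cell class with mouse as a block, and tested with edgeR 4.0.16 (filterByExpr, TMM, robust quasi-likelihood) with Benjamini-Hochberg adjustment over all genes tested, threshold 0.05. With 2 mice against 2, an exact permutation test could not go below p = 0.333, so none was run. Spread between separate mice of 1 run enters every test. DESeq2 1.42.0, other classes, filters and left-out mice were tried as alternatives, and the fits were tested on simulated data. Named are members past 0.05, the 12 with the highest mean level, those whose genotypes did not overlap, and, among other genes, the 12 largest rises and 6 largest falls with at least 10 CPM and 1 direction in all 4 mice, with up to 3 genes per list. Of the 12 rises, 1 is not reported here. Clusters came from Pearson residuals in scanpy 1.11.5 with leidenalg 0.10.2. Promoter sequences are RefSeq's for GRCm38.p6.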

Additional observations from a re-analysis of the deposited data

Results flagged for a closer look

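Of the barcodes outside the kept cells, 2 classes had member levels above the higher wild-type mouse, 1087 CPM, although the interval of the first spans that level and that of the second starts at it. In 35 barcodes without a hashtag call the summed level was 1094 CPM (218 UMIs, exact Poisson 95% interval 954 to 1250). In single-mouse barcodes that the authors left out and that had 5% or more mitochondrial UMIs it was 1172 CPM (717 UMIs, interval 1088 to 1261, median depth 1547 UMIs). Fitting the genotypes over all single-mouse barcodes called 0 members. Kept cells were at 1039 CPM, barcodes with more than 1 hashtag at 994 CPM, and the 68 other barcodes left out at 674 CPM. The intervals cover counting error only.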

How the results depend on the processing

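Depth limits the rare members: 7 averaged under 10 CPM, and those with too few counts in a class were not tested. No paired analysis was possible because the hashtag numbers of the 2 genotypes name different mice. Members called lower and higher between genotypes, 0 and 0, became 1 and 1 with no filter on low counts, 0 and 2 when every mouse gave as many cells to a cluster, and 0 to 1 and 0 to 4 with 1 mouse left out, where the lone mouse is assumed to vary like the others. For CD48 (11 lower, 1 higher) DESeq2 gave 7 lower, the centred log ratio of the tags 7 lower and 2 higher, ranking within non-cycling cells 0 and 2, and within cycling cells 1 and 2. For CD150 (3 lower, 0 higher) DESeq2 gave 1 lower, the centred log ratio 0 lower and 4 higher, and leaving out a mouse 1 to 4 lower. For CD135 (0 higher) wider classes gave 1, the centred log ratio 10, and leaving out a mouse 0 to 1. For CD41 (5 lower, 0 higher) DESeq2 gave 0 lower, the centred log ratio 2 lower and 4 higher, and leaving out a mouse 3 to 6 lower. For cycling cells (25 lower, 0 higher) DESeq2 gave 16 lower, ranking within CD48-low cells 12 and within CD48-high cells 10, and leaving out clusters 0 and 1 gave 19 lower and 1 higher. Other genes called in member-rich cells (614 lower, 452 higher) became 263 and 226 with DESeq2, 393 and 285 in the top 5% of cells, and 403 to 530 and 269 to 424 with 1 mouse left out.

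Log2 changes that turned sign, none past the threshold there, were for CD48 within non-cycling cells Isg15 (0.013), Oasl2 (0.033), Irf9 (0.068), Slfn5 (0.028) and Parp14 (0.083), and within cycling cells Ifi44 (0.76), Isg15 (0.30), Parp14 (0.020) and Ifit1 (0.68). With the centred log ratio Irf9 turned for CD150 (0.076) and Slfn5 for CD41 (0.49). Between cycling and non-cycling cells they were Ifih1 within CD48-low cells (0.12), Usp18 within CD48-high cells (0.028) and Bst2 without clusters 0 and 1 (6.4e-05). The rankings within classes and the fits without clusters 0 and 1 or without macrophage, B cell and neutrophil transcripts were chosen after seeing the data. The cause of these changes was not tested, beyond the fewer cells and members in the fits within classes.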
